A study of Mus musculus with 11 samples.

Results

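Effector T cells that lost the transcription factor Thpok and carry both CD4 and CD8 on their surface were compared with true CD8 effectors of wild-type mice. Arrays were taken by their titles, which gave 3 arrays of the Thpok-deficient CD4+CD8+ cells and 2 of the wild-type CD4-CD8+ cells, called CD8 cells here, 5 of the 11 arrays of the series. The comparison asks what CD8-bearing cells that started as CD4 T cells still lack, or still keep, beside CD8 cells, over all genes. The CD4+CD8+ cells came from mice of genotype Thpokf/f CD2cre, in which a Cre recombinase driven from CD2 deletes the floxed Thpok gene in lymphocytes, and the CD8 cells from wild-type mice. Both started as naive CD44-low spleen T cells, sorted as CD4+CD8- for the mutant and CD4-CD8+ for the CD8 cells. Every culture received the Th1 condition: anti-CD3 at 1 µg/ml, anti-CD28 at 3 µg/ml, 50 U/ml of IL-2, 10 ng/ml of IL-12 and anti-IL-4 at 10 µg/ml, with irradiated C57BL/6 spleen cells depleted of T cells to present antigen. Effectors were sorted by CD4 and CD8 on day 4. Wild-type CD4+CD8- cells (3 arrays) and Thpok-deficient CD4+CD8- cells (3 arrays), cultured under the same Th1 condition, serve to place a gene between the lineages. Genotype, starting cell and surface phenotype all differ between the groups compared and cannot be told apart. The labels call the arrays of a group biological replicates, but the arrays came from only 2 cell preparations and no label says which, so p-values measure the spread between these arrays, which may be partly technical. No age was stated for the mice.

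Thpok is the product of Zbtb7b, a repressor with zinc fingers that directs thymocytes selected on MHC class II into the CD4 helper lineage and holds down Cd8 genes and the cytotoxic program. Runx3 works in the opposite direction in CD8 cells, where it silences Cd4 and Zbtb7b and supports perforin and granzyme expression. Mature CD4 T cells that lose Thpok can re-express CD8 beside CD4, which gives the double-bearing effectors measured here.

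Values are the deposited log2 array values, and a difference is the mean of the Thpok-deficient CD4+CD8+ arrays minus that of the CD8 arrays, with the moderated standard error (SE) of a limma fit. A gene was called at a Benjamini-Hochberg adjusted p under 0.05 over all 16673 probe sets. Replicate 3 of the CD4+CD8+ cells has a narrow signal range, with an SD over probe sets of 1.70 against 1.94 to 2.01 in the other 4 arrays, and its olfactory receptor genes, which mark background in T cells, had a median of 4.21 against 3.30 to 3.68. Low genes therefore read higher on that array: 710 of 808 olfactory and vomeronasal receptor genes had a positive difference, with a median of 0.29, and of 0.09 without it. Correlations across genes, which are not independent replicates, ran from 0.937 to 0.979 within the CD4+CD8+ group and from 0.924 to 0.988 between the groups, and the CD8 pair had 0.969. T cell markers averaged 10.02 to 10.40 on the 5 arrays. Markers of B cells averaged 4.43 to 4.99, of myeloid and dendritic cells 4.69 to 5.32, and of erythroid cells and platelets 4.54 to 5.23. Those of gamma-delta T cells averaged 4.78 to 5.56 and of NK cells 5.10 to 5.80, with 4 genes measured for each. The NK mean includes the granzyme gene Gzma, at 8.76 to 9.71, while Ncr1, Tyrobp and Fcer1g read 3.01 to 5.36. The B cell gene Ms4a1 read 2.96 to 3.36 on the 5 arrays, within the background range, but some others of the 8 measured B cell genes read higher. Cd79b read 6.93, 5.64 and 6.41 in the CD4+CD8+ arrays and 7.92 and 7.46 in the CD8 arrays. Cd79a read 4.32 to 6.32 on the 5 arrays and Pax5 4.75 to 5.73. Whether B cell RNA contributed was not tested.

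Across the genome the Thpok-deficient CD4+CD8+ cells differed from CD8 cells past the threshold in 1 gene, Cd4 itself, whose protein was used for the sort. Of 16673 probe sets, 1 was higher and 0 were lower (limma), a called share of 0.006%. At an unadjusted p under 0.05 there were 478 (2.87%), of which 210 were higher (1.26%) and 268 lower (1.61%). The arrays of the groups did not overlap for 23.3% of probe sets, 16.8% higher and 6.51% lower in the CD4+CD8+ cells. The median difference of all probe sets was 0.09, and the median 95% interval of a single difference reached 0.63 to either side of it. In 61.9% of probe sets that interval, which is not adjusted for the number of probe sets, lay inside -1 to 1. Without replicate 3 of the CD4+CD8+ cells Cd4 was again the 1 probe set called (adjusted p = 0.0442), and 242 had an unadjusted p under 0.05. In the contrasts that place genes among the other groups, 34 probe sets were called between the Thpok-deficient CD4+CD8+ and wild-type CD4+CD8- cells (0.204%), 89 between CD8 and wild-type CD4+CD8- cells (0.534%), and 0 between both sorted subsets that lack Thpok (0.0%), and these contrasts share arrays. All other differences below from CD8 cells did not pass the threshold, and a p that misses it does not show that the cells are alike. Their values are therefore mostly given with the SE, the interval or the single arrays, and the same limit holds for those given alone.

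The coreceptor genes set the frame. Cd4 (probe set 6957141), the coreceptor for MHC class II, read 10.32, 9.19 and 9.77 in the Thpok-deficient CD4+CD8+ arrays and 5.20 and 4.43 in the CD8 arrays. The groups lay far apart, at 9.76 ± 0.56 (SD, n = 3) against 4.81 ± 0.54 (n = 2), and Cd4 was higher by 4.95 ± 0.44 (SE), 30.8-fold (adjusted p = 0.00483). The call ended without CD8 replicate 2 (4.56, adjusted p = 0.210) and on the 9 arrays that leave out both arrays of narrow range, the other being wild-type CD4+CD8- replicate 3 (4.94, adjusted p = 0.119). Beside the wild-type CD4+CD8- cells, at 10.28 ± 0.63, the Thpok-deficient CD4+CD8+ cells stood at -0.52 ± 0.40 (adjusted p = 0.953), so no loss of Cd4 mRNA beyond the spread was measured.

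Cd8b1, the beta chain of CD8, read 9.61, 9.56 and 9.54 in the CD4+CD8+ arrays and 11.11 and 11.25 in the CD8 arrays. Both groups were tight and did not overlap, with a difference of -1.61 ± 0.20 and a 95% interval from -2.06 to -1.16. Yet Cd8b1 was not called, with an adjusted p of 0.0659 (limma), just above the threshold of 0.05. It was called with a further quantile normalization (adjusted p = 0.0494), with a filter on mean signal (0.0374) and with array weights (0.0205), and the adjusted p ran up to 0.909 in the other alternatives. Cd8a, the alpha chain, read 9.77, 10.28 and 9.67 against 11.78 and 11.56, again without overlap. The difference was -1.76 ± 0.46 (adjusted p = 0.828), with an interval from -2.77 to -0.75. Both chains are genes of the sort marker. From wild-type CD4+CD8- cells (5.14 ± 0.88, n = 3) Cd8a rose by 4.77 ± 0.41 (adjusted p = 0.00103) in the CD4+CD8+ cells, and Cd8b1 rose by 2.34 ± 0.18 (adjusted p = 0.000629). Thpok-deficient CD4+CD8- cells read 6.97 ± 0.55 for Cd8a, and the CD4+CD8+ cells stood 2.94 ± 0.41 above them (adjusted p = 0.189). In bulk RNA, a part of the cells with full levels and all cells with less RNA for a gene cannot be told apart.

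The promoter of Cd8a is shown because this gene had one of the 2 largest negative differences among named genes with a promoter in the RefSeq table. The window holds 250 bases before and 50 after the RefSeq start, chr6:71373177-71373476 of GRCm38.p6, plus strand. It was searched on both strands for the Runx core TGTGGT, which 16.8% of the 32851 promoters of that length hold. A second search was for the Gata site AGATAA, found in 11.2% of promoters. The third was for the T-box core TCACAC, found in 14.5%. The Cd8a window held 0 matches to these motifs, which says only that the letters are not in this window.
Cd8a: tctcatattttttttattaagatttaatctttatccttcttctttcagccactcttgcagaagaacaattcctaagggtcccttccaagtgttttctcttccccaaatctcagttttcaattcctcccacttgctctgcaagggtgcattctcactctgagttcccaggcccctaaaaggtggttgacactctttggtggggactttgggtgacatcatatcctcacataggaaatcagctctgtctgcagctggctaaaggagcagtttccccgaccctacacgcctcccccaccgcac

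Zbtb7b, the targeted gene, read 6.79, 6.30 and 7.0 in the CD4+CD8+ arrays and 6.89 and 7.23 in the CD8 arrays, which overlapped. The difference was -0.37 ± 0.28 (adjusted p = 0.828), with an interval from -0.98 to 0.24. Wild-type CD4+CD8- cells read 8.43 ± 0.35 (n = 3), and the CD4+CD8+ cells fell by 1.73 from there (SE 0.25, adjusted p = 0.0246). No source used here says whether the probes fall inside the deleted part of the gene, so this level may not check the deletion. Zbtb7a, a close relative of Zbtb7b, stood at -0.02 ± 0.31.

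**Figure D1:**
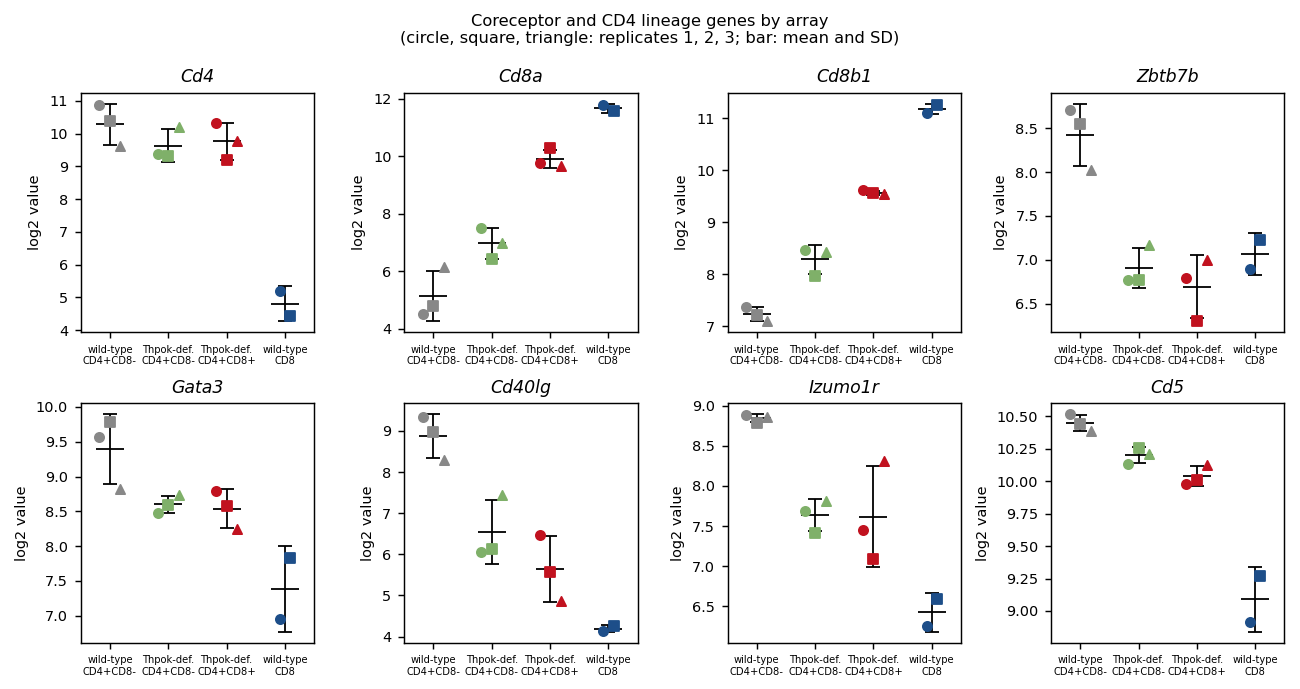
Log2 values of 8 genes (y axis) on every array, by group (x axis), with the mean and SD of each group as a bar. Cd4 in the Thpok-deficient CD4+CD8+ cells (9.76) lies with the CD4-bearing groups, Cd8b1 (9.57) lies between Thpok-deficient CD4+CD8- cells (8.29) and CD8 cells (11.18), and Cd5 lies near 10.04, above both CD8 arrays.

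Among 14 measured genes of the CD4 helper lineage, 12 had a positive and 2 a negative difference, with a median of 0.29 against 0.09 for all 14835 named genes, of which 8785 were positive. Cd4 was the 1 member called, 5 members had an unadjusted p under 0.05, all in the positive direction where the background share is 1.26%, and for 6 members the arrays did not overlap (background 16.8%). The median was 0.19 without CD8 replicate 1 and 0.86 without CD8 replicate 2. Olfactory and vomeronasal receptor genes, which mark background, had a median of 0.29 as well. Without CD4+CD8+ replicate 3 the CD4 helper median was 0.25, with 11 positive and 3 negative members, against 0.09 for the olfactory genes. The 5 members with an unadjusted p under 0.05 (limma) were Cd4, Cd40lg, Gata3, Izumo1r and Cd5.

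Gata3, a zinc finger factor needed for CD4 and Th2 development, read 8.80, 8.57 and 8.24 in the CD4+CD8+ arrays and 6.95 and 7.82 in the CD8 arrays. No arrays overlapped, and the difference was 1.15 ± 0.33 (adjusted p = 0.828). Wild-type CD4+CD8- cells stood at 9.39 ± 0.50 and Thpok-deficient CD4+CD8- cells at 8.60 ± 0.13, so the double-bearing cells lay close to the latter. Cd40lg, the ligand by which helper cells engage CD40 on B cells and dendritic cells, read 6.47, 5.57 and 4.87 against 4.14 and 4.25. Its difference from CD8 cells was 1.44 ± 0.51 (adjusted p = 0.828), while it fell by 3.24 (SE 0.46) from the 8.87 ± 0.54 of wild-type CD4+CD8- cells (adjusted p = 0.0246). Its lowest array was replicate 3, and the difference was 1.82 without it.

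Cd5, a scavenger-type receptor that dampens T cell receptor signals, read 9.98, 10.01 and 10.12 against 8.91 and 9.27. That difference of 0.95 ± 0.18 (adjusted p = 0.828) had an interval from 0.55 to 1.34, and it passed the threshold with array weights (0.92, adjusted p = 0.0367). Izumo1r, the folate receptor family member FR4 found on regulatory and anergic CD4 T cells, stood at 1.19 ± 0.31, with 7.45, 7.09 and 8.31 against 6.25 and 6.60. Ecm1, an extracellular matrix protein that Th2 cells express, belongs to the Th2 list and not to this one. It stood at 1.62 ± 0.66, with 9.55, 8.04 and 8.72 against 7.19 and 7.11. Both genes were above the CD8 arrays in all 3 CD4+CD8+ arrays. The other members of the CD4 helper list ran from -0.51 for Myb, a factor of lymphocyte development, to 0.55 for Tnfsf8, which encodes the CD30 ligand. Between them lay Zbtb7b at -0.37, Lef1 at 0.10, Nrp1 at 0.18, Tox at 0.29 and Icos at 0.30.

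The promoter of Ecm1 follows, since this gene had the largest positive difference among named genes with a promoter in the RefSeq table (chr3:95739520-95739819 of GRCm38.p6, minus strand). It holds none of the 3 motifs named above.
Ecm1: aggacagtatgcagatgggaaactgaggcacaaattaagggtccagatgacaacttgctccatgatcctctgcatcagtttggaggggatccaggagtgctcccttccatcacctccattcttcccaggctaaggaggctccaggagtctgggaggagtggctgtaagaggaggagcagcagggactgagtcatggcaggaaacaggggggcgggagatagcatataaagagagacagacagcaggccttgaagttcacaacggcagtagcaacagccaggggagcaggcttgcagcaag

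Of 18 measured lineage transcription factors, 12 were positive and 6 negative, with a median of 0.10 that turned to -0.07 without CD8 replicate 1, and 0 were called. Gata3, given above, had the largest difference of this list. Runx3, which establishes the CD8 lineage, read 10.49, 10.27 and 10.64 against 10.31 and 11.46, and its difference of -0.42 ± 0.33 had an interval from -1.16 to 0.31. Eomes, a T-box factor of CD8 effector and memory cells, stood at 0.05 ± 0.31 with an interval from -0.63 to 0.73. Tbx21, which encodes T-bet and drives Th1 genes, read 9.65, 10.24 and 10.05 against 9.15 and 9.77, a difference of 0.52 ± 0.25 with an interval from -0.03 to 1.07. The arrays of all 3 genes overlapped between the groups. Klf2, which controls T cell egress and homing, read 7.68, 7.87 and 7.07 against 6.83 and 6.75, a difference of 0.75 ± 0.33 (adjusted p = 0.828). Of 13 naive and memory genes 10 were positive, with a median of 0.21, which was 0.02 without CD8 replicate 1 and 0.09 without CD4+CD8+ replicate 1.

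Cytotoxic granule genes showed no difference past the threshold. Of 14 measured cytotoxic granule genes, 5 were positive and 9 negative, 0 were called and 0 had an unadjusted p under 0.05 in limma. Their median was -0.16, against 0.09 for all named genes, and the differences ran from -0.60 to 0.18. The median was -0.37 without CD8 replicate 1 and turned to 0.03 without CD8 replicate 2, and without CD4+CD8+ replicate 3 there were 2 positive and 12 negative members. Intervals inside -1 to 1 were found for 4 of the 14, beside 61.9% of all probe sets, so larger differences cannot be set aside for the other 10. These intervals come from the shared fit and also take in the spread of the groups outside the comparison, as given for Gzmb below.

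Prf1, which encodes the pore-forming protein perforin, read 9.63, 9.12 and 9.25 in the CD4+CD8+ arrays and 9.45 and 10.21 in the CD8 arrays. The groups overlapped, and the difference of -0.50 ± 0.31 had an interval from -1.19 to 0.19. From wild-type CD4+CD8- cells, at 6.86 ± 0.32, Prf1 rose by 2.47 ± 0.28 in the CD4+CD8+ cells (adjusted p = 0.00907). Gzmk, granzyme K, read 7.15, 7.20 and 6.94 against 7.51 and 7.89, without overlap, and stood at -0.60 ± 0.38 (adjusted p = 0.828). Gzmb, granzyme B, was among the most abundant with 11.82, 11.67 and 12.05 against 11.72 and 12.14. Its difference was -0.08 ± 1.23, and this wide error comes from the wild-type CD4+CD8- arrays in the shared fit: on the 9 arrays it was -0.19 ± 0.38, and on the 5 arrays alone -0.08 ± 0.25. Gzma, granzyme A, stood at -0.23 ± 0.51 with overlapping arrays, and at 0.01 without replicate 3. Lamp1, a lysosomal membrane protein displayed on degranulation, read 8.46, 8.29 and 7.73 against 8.51 and 8.62, a difference of -0.40 ± 0.25 that was -0.18 without replicate 3.

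**Figure D2:**
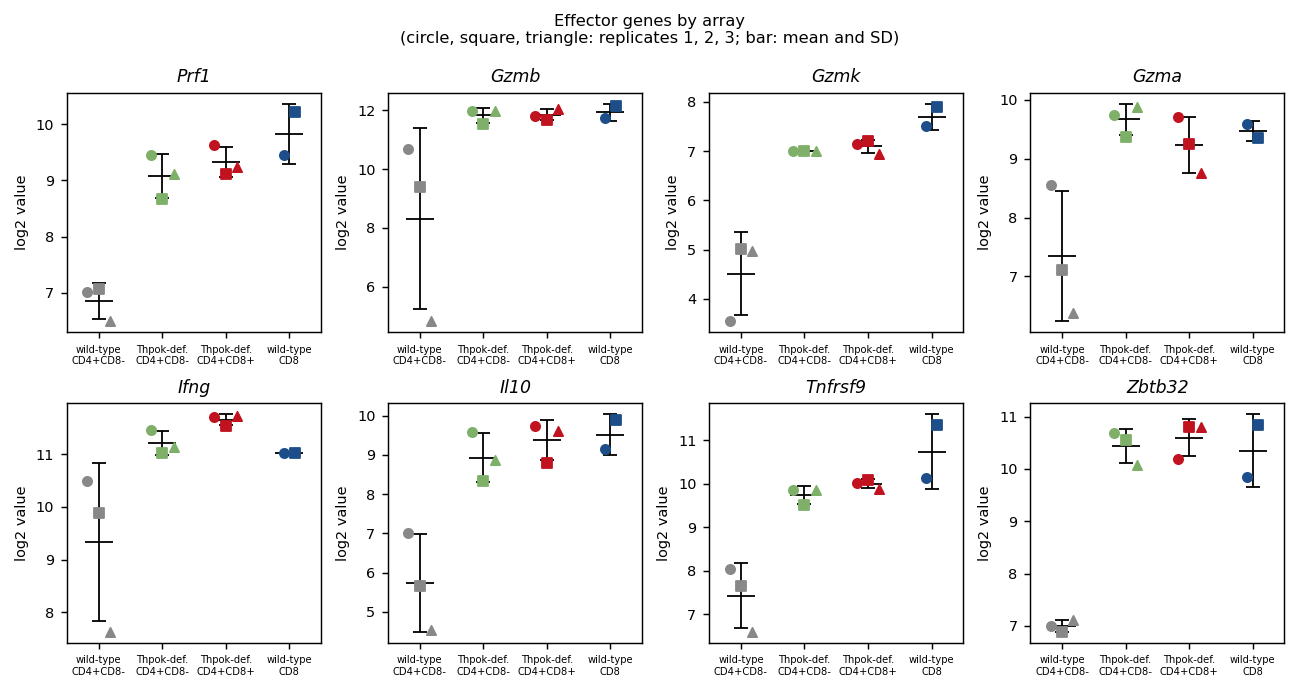
Log2 values of 8 effector genes (y axis) on every array, by group (x axis), with the mean and SD of each group as a bar. In the Thpok-deficient CD4+CD8+ and CD8 cells Prf1 means were 9.33 and 9.83, Gzmb means 11.85 and 11.93 and Zbtb32 means 10.60 and 10.35, all above the wild-type CD4+CD8- means.

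For some genes outside the granule list that read higher in CD8 than in wild-type CD4+CD8- cells, the interval of the difference included 0. Il10, which encodes an immunosuppressive cytokine, read 9.74, 8.80 and 9.60 against 9.14 and 9.88. Its difference of -0.13 ± 0.62 had a wide interval, from -1.50 to 1.24. Zbtb32, a zinc finger repressor related to Thpok, read 10.20, 10.80 and 10.80 against 9.85 and 10.84, and stood at 0.25 ± 0.32 with an interval from -0.44 to 0.95. The arrays of both genes overlapped. The ion channel gene P2rx3 stood at 0.20 ± 0.58 with an interval from -1.07 to 1.47. The deubiquitinase gene Usp11 stood at -0.32 ± 0.30 with an interval from -0.99 to 0.34. These 2 genes with Zbtb32 and Amigo2 were chosen after their values were seen. Amigo2, an adhesion molecule, ran the other way between the wild-type groups, with 8.45 ± 0.33 in wild-type CD4+CD8- cells, and read 5.81, 6.14 and 5.84 in the CD4+CD8+ arrays against 5.36 and 5.29 in the CD8 arrays. The difference from CD8 cells was 0.61 ± 0.28, and from wild-type CD4+CD8- cells Amigo2 fell by 2.52 (SE 0.25, adjusted p = 0.00291).

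The 12 measured CD8 lineage genes include Cd8a (-1.76) and Cd8b1 (-1.61), genes of the sort marker and its lowest members, so the sort enters this list. Of the 12, 6 were positive and 6 negative, with a median of -0.17 and 0 called. That median turned to 0.15 without CD8 replicate 2, was -0.55 without CD8 replicate 1, and was -0.34 without CD4+CD8+ replicate 3, with 4 positive and 8 negative members. Tnfrsf9, the costimulatory receptor 4-1BB, read 10.02, 10.10 and 9.89 against 10.13 and 11.35. It was lower in all 3 arrays, by a difference of -0.74 ± 0.42 that rests mostly on CD8 replicate 2. Cd160, an inhibitory and NK-type receptor, ran the other way with 6.42, 7.11 and 7.52 against 6.07 and 6.10, a difference of 0.93 ± 0.33 (adjusted p = 0.828). Without replicate 3 it was 0.68. The 10 measured NK-type receptors had a median of 0.06, which ran from -0.11 without CD4+CD8+ replicate 3 to 0.31 without CD8 replicate 2. Klrb1f stood at -0.82 ± 0.81, Klrc2 at -0.69 ± 0.59 and Klrd1, the CD94 chain, at -0.37 ± 0.66 (-0.67 without CD4+CD8+ replicate 3). The CD8 arrays lay far apart, at 4.26 and 7.70 for Klrb1f, 5.26 and 7.45 for Klrc2 and 8.15 and 9.94 for Klrd1. CD8 replicate 1 lay below the CD4+CD8+ mean of each gene (5.16, 5.66 and 8.68), so each negative difference rests on CD8 replicate 2. Inhibitory receptors had a median of -0.04 over 13 genes, from -0.17 without CD8 replicate 1 to 0.29 without CD8 replicate 2. Pdcd1 (PD-1) stood at -0.16, Lag3 at -0.10 and Havcr2 (Tim-3) at -0.34 (-0.71 without CD4+CD8+ replicate 3). Havcr2 read 7.76, 7.33 and 8.66 against 6.66 and 9.85. For Pdcd1 the CD8 arrays read 7.93 and 9.14, to both sides of the CD4+CD8+ mean of 8.37. The negative differences of Havcr2 and Pdcd1 thus rest on CD8 replicate 2. Nt5e, the ecto-enzyme CD73 that makes adenosine, stood at -1.56 ± 0.61, with 7.44, 5.76 and 6.56 against 7.14 and 9.16, and these arrays overlapped.

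Several genes that T cell receptor signals induce read higher in all 3 CD4+CD8+ arrays. Of 32 measured genes of receptor signalling and costimulation, 24 were positive and 8 negative, with a median of 0.15 against 0.09 for all named genes. The median was 0.08 without CD8 replicate 1 and 0.41 without CD8 replicate 2. None was called (limma), but 9 had an unadjusted p under 0.05 in the positive direction, where the background share is 1.26%, and 0 in the negative direction (1.61%). The arrays did not overlap for 10 of them, all higher (background 16.8%).

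Egr2, an early growth response factor that restrains T cell activation, read 7.11, 6.53 and 6.62 in the CD4+CD8+ arrays and 5.44 and 5.33 in the CD8 arrays. The groups did not overlap, and the difference was 1.37 ± 0.24 (adjusted p = 0.730), with an interval from 0.85 to 1.89. Egr3, its relative, read 6.03, 5.96 and 7.09 against 5.20 and 5.28, a difference of 1.12 ± 0.34, and 0.75 without replicate 3. Nr4a1, the orphan nuclear receptor Nur77 that reports receptor signal strength, read 8.33, 8.14 and 7.54 against 6.83 and 6.76. Its difference was 1.21 ± 0.31, and 1.44 without replicate 3. None of the arrays of these 3 genes overlapped between the groups.

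Nr4a3, of the same family, stood at 0.84 ± 0.27, and Dusp6, a phosphatase that limits ERK signalling, at 1.36 ± 0.59, with 9.39, 8.64 and 8.71 against 7.93 and 7.18. The adaptor genes Lcp2 (SLP-76) and Sla stood at 0.54 ± 0.20 and 0.52 ± 0.23, and Cd6, a receptor related to Cd5, at 0.61 ± 0.22. Not every early response gene followed, since Egr1 stood at -0.07, Nr4a2 at -0.23 and Dusp2 at -0.08 (0.29 without replicate 3). Wild-type CD4+CD8- cells read 5.92 ± 0.23 for Egr2 and 7.39 ± 0.37 for Nr4a1, and Thpok-deficient CD4+CD8- cells 6.00 ± 0.20 and 7.37 ± 0.38. The CD4+CD8+ cells stood 0.75 ± 0.21 above the latter for Egr2 and 0.63 ± 0.27 for Nr4a1, neither of them called (adjusted p = 0.682 for each). Cd3e, Cd3g and Cd3d, chains of the receptor complex, stood at 0.03, -0.27 and -0.25.

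Egr2 had the second largest positive difference among named genes with a promoter, and the first listed of its 5 start sites in RefSeq is shown (chr10:67535249-67535548 of GRCm38.p6, plus strand). It holds none of the 3 motifs named above.
Egr2: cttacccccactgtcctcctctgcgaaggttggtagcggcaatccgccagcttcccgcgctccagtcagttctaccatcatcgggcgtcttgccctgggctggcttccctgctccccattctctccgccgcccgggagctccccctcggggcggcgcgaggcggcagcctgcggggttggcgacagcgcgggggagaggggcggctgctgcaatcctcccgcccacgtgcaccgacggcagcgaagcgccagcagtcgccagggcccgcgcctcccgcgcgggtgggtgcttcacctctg

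**Figure D3:**
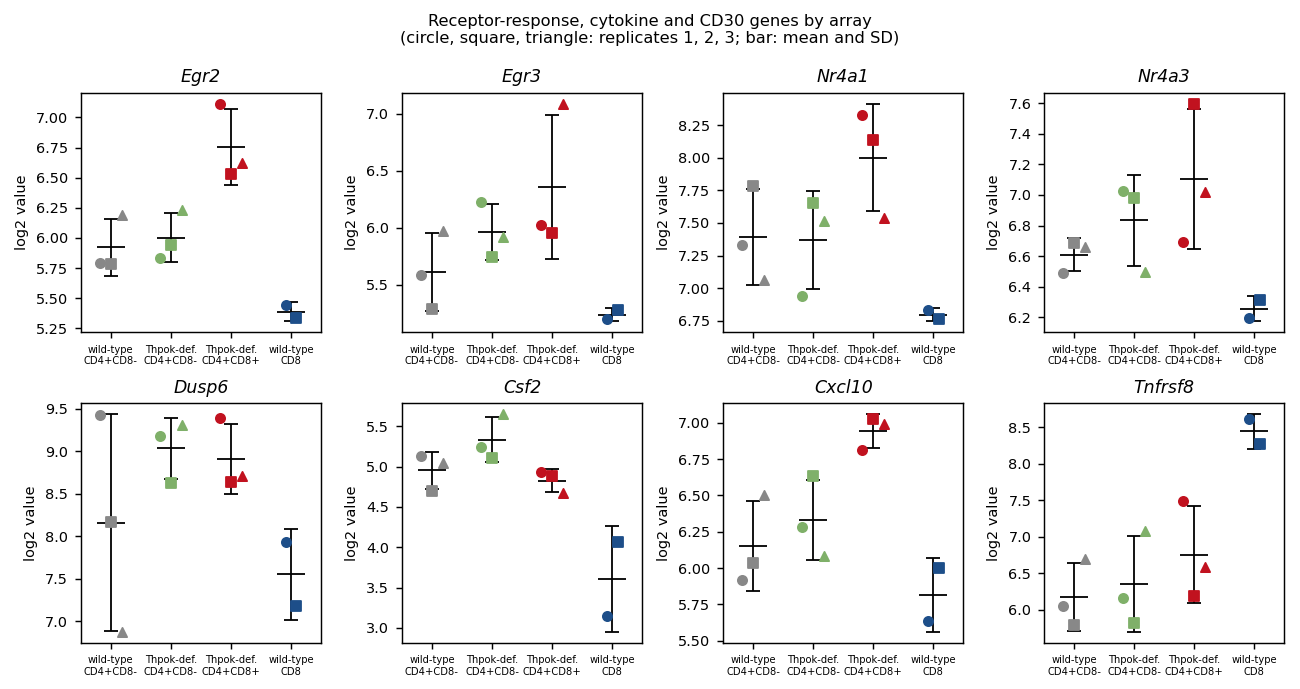
Log2 values of 8 genes (y axis) on every array, by group (x axis), with the mean and SD of each group as a bar. Egr2 (6.75 against 5.39), Nr4a1 (8.0 against 6.79), Csf2 (4.83 against 3.60) and Cxcl10 (6.94 against 5.82) were higher in all 3 Thpok-deficient CD4+CD8+ arrays than in both CD8 arrays, and Tnfrsf8 (6.76 against 8.44) was lower.

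Secreted factors were mostly on the positive side. Of 20 measured cytokine genes 19 were positive, with a median of 0.32, and of 12 chemokine genes 11 were, with a median of 0.46, and 0 were called. Many of these genes are near background, where olfactory genes had a median of 0.29 as well, and without replicate 3 the medians were 0.25 and 0.27 against 0.09 for olfactory genes, with 16 of the cytokine genes positive. The part of the narrow array in these medians was not tested further.

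Ifng, the main Th1 cytokine, read 11.70, 11.53 and 11.72 against 11.02 and 11.02, so that all 3 arrays were higher. The difference was 0.63 ± 0.62 in the shared fit and 0.63 ± 0.21 on the 5 arrays alone (adjusted p = 0.815). Csf2, which encodes the cytokine GM-CSF, read 4.93, 4.88 and 4.67 against 3.14 and 4.07, a difference of 1.22 ± 0.29 (adjusted p = 0.828) at a low level. Cxcl10, an interferon-induced chemokine that draws CXCR3-bearing cells, read 6.81, 7.03 and 6.99 against 5.63 and 6.00, a difference of 1.13 ± 0.24 (adjusted p = 0.828). Lta, lymphotoxin alpha, stood at 0.83 ± 0.36, with 6.06, 6.48 and 6.32 against 6.02 and 4.89, and rests mostly on CD8 replicate 2. Xcl1, a chemokine for cross-presenting dendritic cells, stood at 0.83 ± 0.36. Its arrays overlapped, with 5.33, 6.61 and 6.21 against 5.06 and 5.37. Ccl5, a chemokine abundant in CD8 effectors, stood at -0.55 ± 0.71, and at -0.98 without CD4+CD8+ replicate 3. Its arrays overlapped, with 7.79, 7.55 and 8.96 against 7.93 and 9.38. CD8 replicate 1 lay below the CD4+CD8+ mean of 8.10, so the negative difference of Ccl5 rests on CD8 replicate 2. Of 19 measured Th1 genes 14 were positive, with a median of 0.35, which was 0.02 without CD8 replicate 1 and 0.19 without CD4+CD8+ replicate 1. Among them was Il18rap, a chain of the IL-18 receptor, at 0.59 ± 0.24.

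TNF family genes had differences of both signs. Of 27 measured ligands and receptors 18 were positive and 9 negative, with a median of 0.20 (0.09 without CD4+CD8+ replicate 1) and 0 called. Tnfrsf8, which encodes CD30, read 7.49, 6.20 and 6.58 in the CD4+CD8+ arrays and 8.61 and 8.28 in the CD8 arrays. These did not overlap, and the difference was -1.68 ± 0.44 (adjusted p = 0.828). The other groups also lay below CD8 cells, with 6.18 ± 0.46 in wild-type and 6.35 ± 0.65 in Thpok-deficient CD4+CD8- cells. Tnfrsf25, the costimulatory receptor DR3, read 6.51, 7.25 and 6.78 against 5.41 and 5.67, a difference of 1.31 ± 0.35 (adjusted p = 0.828). Wild-type CD4+CD8- cells read 8.56 ± 0.60, so the CD4+CD8+ cells lay between the wild-type groups. Jaml, an adhesion molecule of activated T cells, stood at -1.03 ± 0.36 and the chemokine receptor gene Cxcr4 at -0.81 ± 0.35, both lower without overlap, and Jaml was at -0.68 without replicate 3. Ikzf2, which encodes the factor Helios, stood at -1.18 ± 0.41, with 7.15, 7.0 and 5.91 against 7.25 and 8.49.

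The remaining T cell lists held 0 called genes each. Of 12 Th2 genes 11 were positive, with a median of 0.39 that was 0.15 without replicate 3. The Th17 and Treg list had a median of 0.18 over 14 genes, and of -0.04 without that array, and the Tfh list one of 0.10 over 12 genes. Medians near 0 were found for effector differentiation (-0.01 over 17 genes), cytokine receptors (0.05 over 23), chemokine receptors and adhesion molecules (-0.00 over 27), interferon response (0.02 over 22), apoptosis (0.03 over 15) and Zbtb factors (-0.03 over 22). The medians of these 6 lists and of the Tfh list each turned sign without at least 1 of the 5 arrays, and that of effector differentiation ran from -0.23 without CD8 replicate 1 to 0.30 without CD8 replicate 2. Intervals inside -1 to 1 were found for 18 of the 23 cytokine receptor genes and 16 of the 22 Zbtb genes, beside 61.9% of all probe sets.

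Of 10 measured glycolysis genes 9 were negative, with a median of -0.40, and 0 were called. The size of this median rested on single arrays: it was -0.27 without CD4+CD8+ replicate 3, -0.66 without CD4+CD8+ replicate 1, -0.78 without CD8 replicate 1 and -0.09 without CD8 replicate 2. The list mean was 9.49, 9.21 and 8.74 in the CD4+CD8+ arrays and 9.36 and 9.87 in the CD8 arrays, with the array of narrow range the lowest of the 5, and its part in this median was not tested further. Pfkp and Pfkl, subunits of phosphofructokinase, stood at -0.98 ± 0.46 and -0.79 ± 0.45, and at -0.62 and -0.46 without replicate 3. Among 22 genes of amino acid and sterol metabolism 14 were negative, with a median of -0.23. That median turned to 0.04 without CD8 replicate 1, and was -0.54 without CD8 replicate 2, -0.36 without CD4+CD8+ replicate 1 and -0.12 without CD4+CD8+ replicate 3.

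Asns, asparagine synthetase, had the largest negative difference of all named genes, at -2.30 ± 0.80 (adjusted p = 0.828). It read 7.85, 5.64 and 5.95 in the CD4+CD8+ arrays and 9.01 and 8.54 in the CD8 arrays, a wide spread without overlap. Psat1, an enzyme of serine synthesis, stood at -0.54 ± 0.27 and Scd1, a fatty acid desaturase, at -1.49 ± 0.78. Both were lower in all 3 arrays. The cell cycle list had 20 of 28 genes positive, a median of 0.10, differences from -0.37 to 0.48 and 0 called, and its median ran from -0.03 without CD4+CD8+ replicate 2 to 0.23 without CD8 replicate 1.

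The Asns promoter (chr6:7693160-7693459 of GRCm38.p6, minus strand) is printed with TGATGAAAC in capitals. From the human gene this element is known to take part in the response to amino acid shortage. Whether it bears on the difference of Asns was not tested. This motif was added after the values were seen, and 0.247% of all promoters of that length hold it on either strand. It holds none of the 3 motifs named above.
Asns: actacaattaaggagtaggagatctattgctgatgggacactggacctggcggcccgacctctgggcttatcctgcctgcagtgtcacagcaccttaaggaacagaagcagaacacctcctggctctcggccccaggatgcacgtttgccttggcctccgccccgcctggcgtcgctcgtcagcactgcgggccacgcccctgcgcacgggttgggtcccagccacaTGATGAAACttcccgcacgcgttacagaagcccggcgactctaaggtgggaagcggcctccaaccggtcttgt

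**Figure D4:**
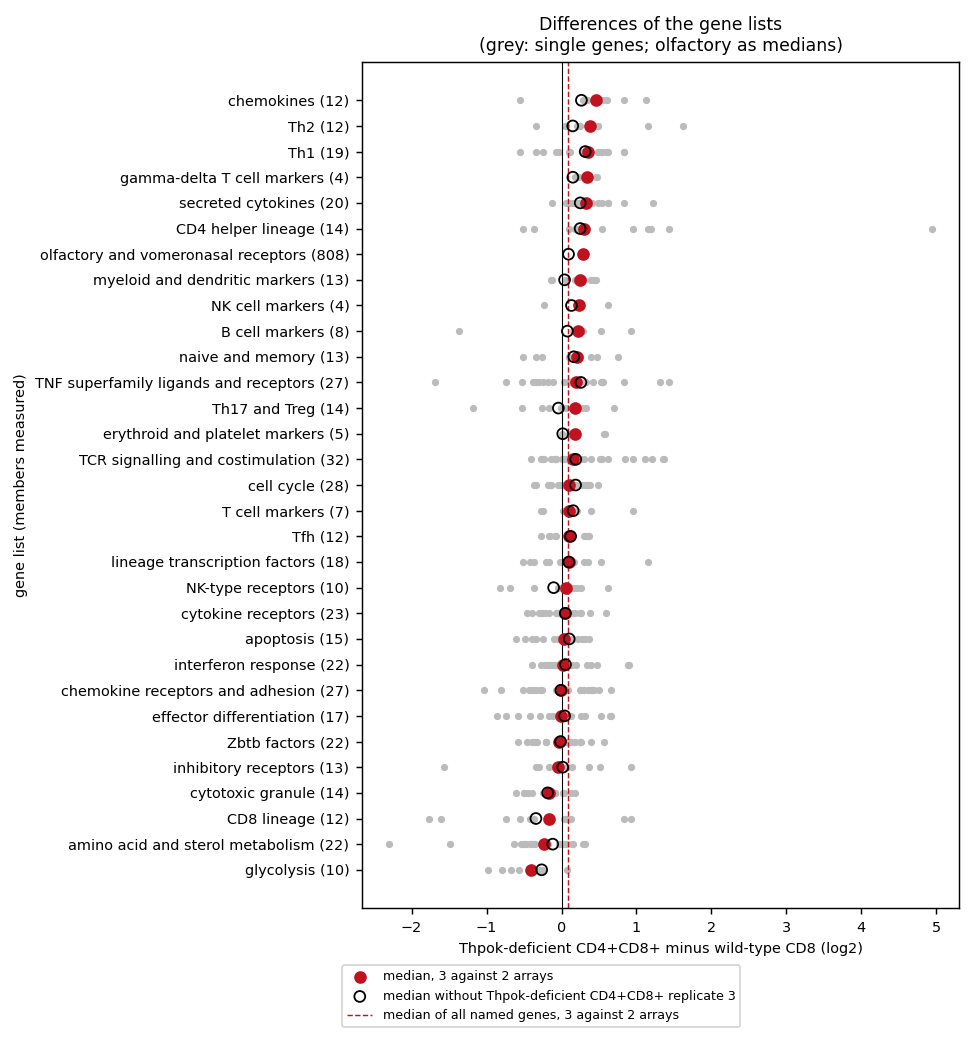
Difference between Thpok-deficient CD4+CD8+ and wild-type CD8 cells (x axis, log2) for each gene list (y axis), with single genes in grey, the median of 3 against 2 arrays in red and the median without replicate 3 as an open circle. The medians run from -0.40 for glycolysis to 0.46 for chemokines, and the single gene far to the right is Cd4.

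Arrays also split by the Y-linked genes Eif2s3y and Kdm5d, which are expressed in male cells. Eif2s3y read 7.77, 3.01 and 4.43 in the CD4+CD8+ arrays and 8.08 and 3.19 in the CD8 arrays, so replicate 1 of each group was high and the others low. The other groups held both kinds of array too, and the labels do not give the sex of the mice. With this level as a factor in the fit, chosen after seeing the data, Cd4 was again the 1 probe set called (5.07 ± 0.32, adjusted p = 0.000233). Between the arrays high for Eif2s3y (1 and 1) and between those low for it (2 and 1), the differences were 5.12 and 5.05 for Cd4, -1.49 and -1.71 for Cd8b1, 1.67 and 1.24 for Egr2, and 1.07 and 0.80 for Cd5. Other genes were less even, with -1.16 and -2.75 for Asns, 1.85 and 0.59 for Gata3, 0.18 and -1.03 for Prf1, 0.30 and -3.00 for Nt5e, and 0.17 and -1.01 for Runx3. For Prf1, Nt5e and Runx3 the direction thus turned between these pairs of arrays, each of which holds too few arrays for a test.

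**Figure D5:**
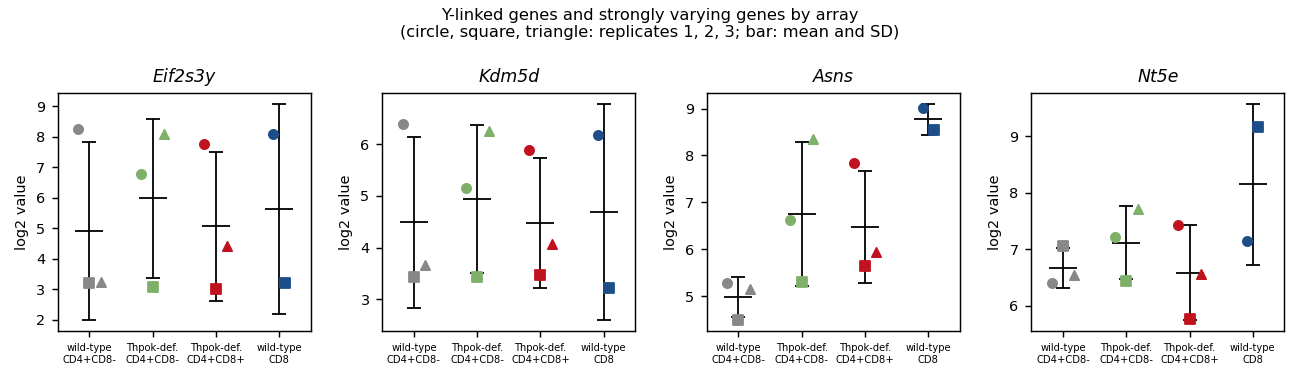
Log2 values (y axis) of the Y-linked genes Eif2s3y and Kdm5d and of Asns and Nt5e on every array, by group (x axis), with the mean and SD of each group as a bar. Eif2s3y lies at 7.77 in Thpok-deficient CD4+CD8+ replicate 1 and 8.08 in CD8 replicate 1, and at 3.01 to 4.43 in the other 3 arrays of these groups, and Asns was highest in replicate 1 of both.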

How the data were processed

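The series holds 11 arrays of sorted mouse effectors. The authors deposited log2 values; the submitters' processing notes list Partek, RMA and mm9, and give no version. The series design text names the Mouse Exon 1.0 ST array, the label protocol a 3' IVT kit. The table held 16673 probe sets, all tested: 14970 carried 1 gene symbol, 1019 several and 684 none, 14920 were matched to RefSeq by Entrez identifier, and 14835 genes were named, the probe set with the highest mean standing for the 134 genes with several.

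A limma 3.58.1 model (R 4.3.3) with a coefficient for each group covered all 11 arrays (7 residual and 3.8 prior degrees of freedom). P-values are two-sided, with Benjamini-Hochberg adjustment across the whole table, and the fit was tested on simulated data. Named genes were up to 12 called genes in each direction, 15 fixed genes and up to 4 members of each list by size of difference. The members and lists were chosen with earlier results of these data known. Lists were counted, not tested. Promoters are RefSeq's (GRCm38.p6), 1 for each of the 2 largest positive and 2 largest negative differences among the 89 named genes with one. Further list members named as examples were chosen after their values were seen. Alternatives were other normalizations, a mean of at least 6, other sets of arrays, array weights, a trended prior and the replicate block. For arrays, their number limits the precision.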

Additional observations from a re-analysis of the deposited data

How the results depend on the processing

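The count of called probe sets stayed at 1, Cd4, with median centring, on the 5 arrays alone, with a trended and robust prior and with the level of Eif2s3y as a factor. It was 2 with a further quantile normalization and 2 with a mean of at least 6, where Cd8b1 was added, 4 with array weights, where Cd8b1, Cd5 and Nfkbid were added, and 0 on the 9 arrays, where 833 probe sets had an unadjusted p under 0.05 (limma). Array weights ran from 0.056 to 51.9 and their estimate stopped before it converged, so that count rests on few arrays. Leaving out single arrays gave counts from 0 to 2: 0 without CD8 replicate 2, where 450 had an unadjusted p under 0.05, and 2 without CD8 replicate 1, where Sult2b1 was added. The cause of these changes was not tested. Whether the replicate number marks a pairing could not be decided. Same-number arrays of the 2 groups had correlations of their deviations from the group means of 0.34 and -0.09. With 2 CD8 arrays these deviations mirror each other, so such correlations come in pairs of opposite sign and cannot show that pairing is absent. With the replicate block the count was 1. Of the 113 named genes, 25 changed sign under at least 1 alternative, none of them called and all with a difference under 0.83 in size. Precision is limited by 3 and 2 arrays.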

Other observations

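Genes outside the lists with low unadjusted p-values, chosen after their values were seen, were not called either (adjusted p = 0.828 for each). Smo, the signal transducer of the Hedgehog pathway, read 8.20, 7.79 and 8.18 in the Thpok-deficient CD4+CD8+ arrays and 6.87 and 6.89 in the CD8 arrays, a difference of 1.17 ± 0.23. It read 8.05 ± 0.26 (n = 3) in Thpok-deficient and 7.24 ± 0.22 (n = 3) in wild-type CD4+CD8- cells. Nfkbid, an atypical inhibitor of NF-kappaB, stood at 0.91 ± 0.19 and Hivep3, a large zinc finger protein, at 1.17 ± 0.29. Vipr1, the receptor of the neuropeptide VIP, read 7.33, 8.10 and 7.21 against 6.21 and 6.28, while wild-type CD4+CD8- cells stood at 9.26 ± 0.31, and the CD4+CD8+ cells fell by 1.71 from there (SE 0.27, limma adjusted p = 0.0364). Nsg2, a protein best known from neurons, stood at 1.32 ± 0.33 and Ptgir, the prostacyclin receptor, at 1.01 ± 0.25.

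On the lower side, Gpd2, the mitochondrial glycerol-3-phosphate dehydrogenase, stood at -1.14 ± 0.28, Galc, a lysosomal galactosylceramidase, at -1.19 ± 0.29, and Spire1, an actin nucleator, at -1.07 ± 0.26. Each was lower in all 3 Thpok-deficient CD4+CD8+ arrays than in both CD8 arrays. The B cell receptor gene Cd79b stood at -1.36 ± 0.51, with 6.93, 5.64 and 6.41 against 7.92 and 7.46, while its partner Cd79a stood at 0.92 ± 0.38, with its highest value of 6.32 on replicate 3, and at 0.48 without that array.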
